A study of Brassica rapa subsp. pekinensis with 8 samples.

Results

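The CBF genes and their upstream regulator ICE1 were followed in Chinese cabbage (Brassica rapa subsp. pekinensis) before and after vernalization, a prolonged cold treatment that permits flowering. Every gene whose annotated Arabidopsis counterpart was CBF1, CBF2, CBF3, CBF4 or ICE1 was taken, which gave 10 of the 38008 genes in the table. These were 1 CBF1 gene (AT4G25490; Bra010463), 3 CBF2 genes (AT4G25470; Bra022770, Bra019162 and Bra010460), 1 CBF3 gene (AT4G25480; Bra010461), 1 CBF4 gene (AT5G51990; Bra028290) and 4 ICE1 genes (AT3G26744; Bra025226, Bra032947, Bra034246 and Bra026719). The plants were of unmodified inbred lines, of which line “50” bolts late and line “4004” bolts early. Young seedlings were sampled at day 0, grown warm in long days, or at day 35, after 35 days in a cold room with a shorter light period. Day 35 therefore combined cold, day length and plant age, which cannot be told apart. Line “50” had 3 libraries per day, and line “4004” had 1 per day, numbered replicate 3, whose earlier replicates are not analysed here.

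CBF proteins, also called DREB1, are AP2/ERF transcription factors that bind the C-repeat element in the promoters of cold-regulated (COR) genes. In Arabidopsis, CBF1, CBF2 and CBF3 are induced within hours of cold and raise freezing tolerance, while CBF4 is known from drought and abscisic acid responses. ICE1 is a basic helix-loop-helix factor, present before cold, that activates CBF genes and, as SCREAM, also acts in stomatal development. It is controlled largely at the protein level, by phosphorylation, sumoylation and degradation. The roles given here are those of the Arabidopsis genes.

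Levels are given as the deposited normalized read count, a raw count divided by 1 factor per library, in the order of replicates 1, 2 and 3. The lowest raw value in every library was 1, so a normalized count near 1 stands for no reads. Gene lengths were not used, so levels were compared between libraries and not between genes. Libraries held 18.3 to 27.1 M counts. Replicate 3 of line “50” stood apart on both days. Its log2 CPM correlated with the other replicates at 0.901 to 0.928, against 0.986 and 0.99 between replicates 1 and 2, and its TMM scaling factors of 0.763 and 0.71 lay below the 1.033 to 1.186 of the others. The 4 leaf marker genes summed to 71763 to 186273 normalized counts in line “50” and to 41342 and 68705 in line “4004”, whereas the 7 root marker genes summed to 29 at most. The 6 shoot meristem marker genes summed to 6 to 12 at day 0, and at day 35 to 126 to 189 in line “50” and 56 in line “4004”, with WUS and CLV3 at 3 or less, and their part in the day differences was not tested. The labels name leaf as the tissue and the methods name shoots, and fewer cells of a type cannot be told apart from less RNA per cell in such samples.

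In line “50”, all 6 CBF genes stood higher at day 35 than at day 0 in every library, with fitted differences of 1.75 to 2.57 on the log2 scale. None passed the test (edgeR, called at an adjusted p under 0.05 and a change of at least 1 on the log2 scale), and all 6 passed once the replicate number entered the fit as a block. The 3 tested ICE1 genes had differences of -0.57 to -0.55 on the log2 scale, under the threshold of 1, and passed in neither fit. Among all 31191 genes tested, 3.92% were called without the block (2.23% higher, 1.69% lower) and 15.6% with it (7.94% higher, 7.69% lower). Without replicate 3 of line “50”, 5 of the 6 CBF genes were called, Bra010460 being the exception, where 20.4% of all genes tested were called. Without replicate 1 or replicate 2 no CBF gene was called, nor was any other gene.

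Bra022770, a CBF2 gene, stood at 48, 22 and 106 normalized counts at day 0 in line “50”. At day 35 it stood at 203, 180 and 420. The groups did not overlap, and replicate 3 was the highest on each day. The means were 58.7 ± 43.0 and 267.7 ± 132.4 (SD, n = 3), and the fitted difference was 2.21 ± 0.68 on the log2 scale (SE; edgeR adjusted p = 0.13). With the block it was 2.33 ± 0.25 (edgeR adjusted p = 0.0046). Within the 3 numbered pairs it was higher at day 35 by 4.31-, 8.49- and 3.98-fold.

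Bra019162, another CBF2 gene, ran almost in parallel. It stood at 38, 16 and 87 normalized counts at day 0 and at 191, 182 and 377 at day 35. The fitted difference was 2.44 ± 0.69 on the log2 scale (edgeR adjusted p = 0.11, and 0.0054 with the block). The third CBF2 gene, Bra010460, was barely read in line “50” at day 0, at 2, 1 and 3 normalized counts from 2, 0 and 1 reads. At day 35 it stood at 6, 6 and 28 normalized counts from 7, 6 and 16 reads. Replicate 3 was the highest on both days, and the fitted difference was 2.50 ± 0.91 on the log2 scale (edgeR adjusted p = 0.18, and 0.027 with the block).

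The CBF1 gene Bra010463 stood at 9, 1 and 17 normalized counts at day 0 in line “50” and at 38, 27 and 97 at day 35. Its fitted difference was 2.57 ± 0.86 on the log2 scale (edgeR adjusted p = 0.16, and 0.0089 with the block). Within pairs the fold was 4.25 in replicate 1 and 6.0 in replicate 3. Replicate 2 had 1 read at day 0, so its ratio of 29.0 had a counting interval of 4.81 to 1190 (exact 95%). The CBF3 gene Bra010461 went from 5, 1 and 8 to 24, 18 and 45 normalized counts, a fitted difference of 2.54 ± 0.66 on the log2 scale (edgeR adjusted p = 0.088, and 0.0078 with the block).

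CBF4 (Bra028290) was read at the edge of detection in line “50”. It had 0, 1 and 2 reads at day 0 and 7, 6 and 6 at day 35, which gave 1, 2 and 5 against 6, 6 and 11 normalized counts. The groups did not overlap, and the fitted difference was 1.75 ± 0.67 on the log2 scale (edgeR adjusted p = 0.21, and 0.043 with the block). Groups of line “50” that lay wholly higher at day 35, as in these 6 CBF genes, were found in 12.4% of all genes tested. CBF4 passed the filter on low counts only through line “4004”. Both Bra010460 and CBF4 failed that filter in a fit of the line “50” libraries alone and were left out of it.

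**Figure D1:**
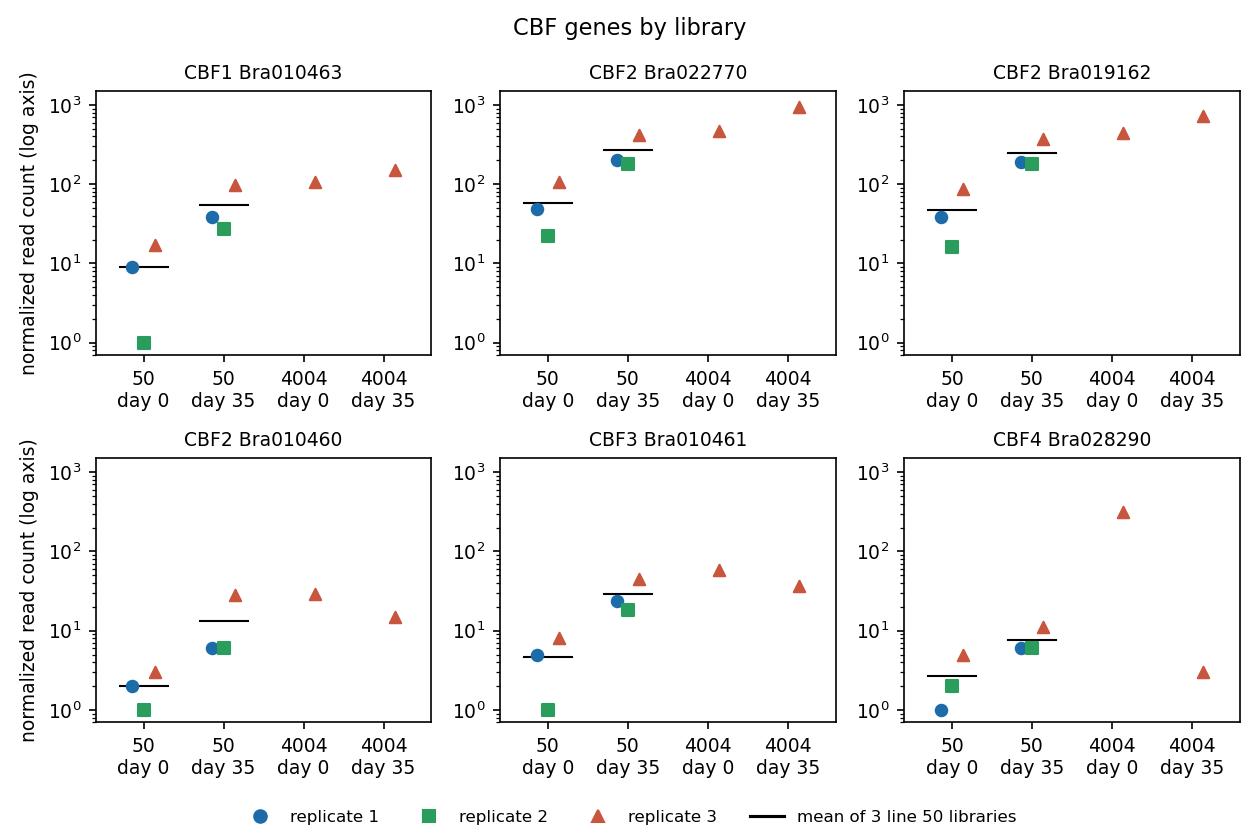
Normalized read count (log axis) of the 6 CBF genes in each library, by line and day, with symbols for the replicate number and bars for the mean of the 3 line “50” libraries. All line “50” libraries stood higher at day 35, and CBF4 stood at 317 in line “4004” at day 0 against 1 to 11 in line “50”.

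The 3 tested ICE1 genes had lower means at day 35 than at day 0 in line “50”, and none passed the test. Their differences lay under the threshold of 1 on the log2 scale, so no p could have given a call. Over the alternatives run they ranged from -0.86 to -0.31, with an adjusted p under 0.05 in at least 1 alternative for each gene. Bra025226 stood at 1126, 1027 and 780 normalized counts at day 0 in line “50” and at 635, 704 and 632 at day 35, and these groups did not overlap. The means were 977.7 ± 178.2 and 657.0 ± 40.7 (SD, n = 3), with a fitted difference of -0.55 ± 0.21 on the log2 scale (edgeR adjusted p = 0.2, and 0.056 with the block). Bra032947 stood at 762, 697 and 424 against 408, 475 and 377 normalized counts, and replicate 3 at day 0 lay within the day 35 range. Its difference was -0.55 ± 0.25 on the log2 scale (edgeR adjusted p = 0.28). Bra034246 stood at 331, 280 and 122 against 184, 195 and 107 normalized counts, again with overlap, and differed by -0.57 ± 0.39 (edgeR adjusted p = 0.49). Groups lying wholly lower at day 35, as in 1 of these 3 genes, were found in 12.9% of all genes tested. The fourth ICE1 gene, Bra026719, had no more than 1 read in any library, failed the filter and was not tested.

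**Figure D2:**
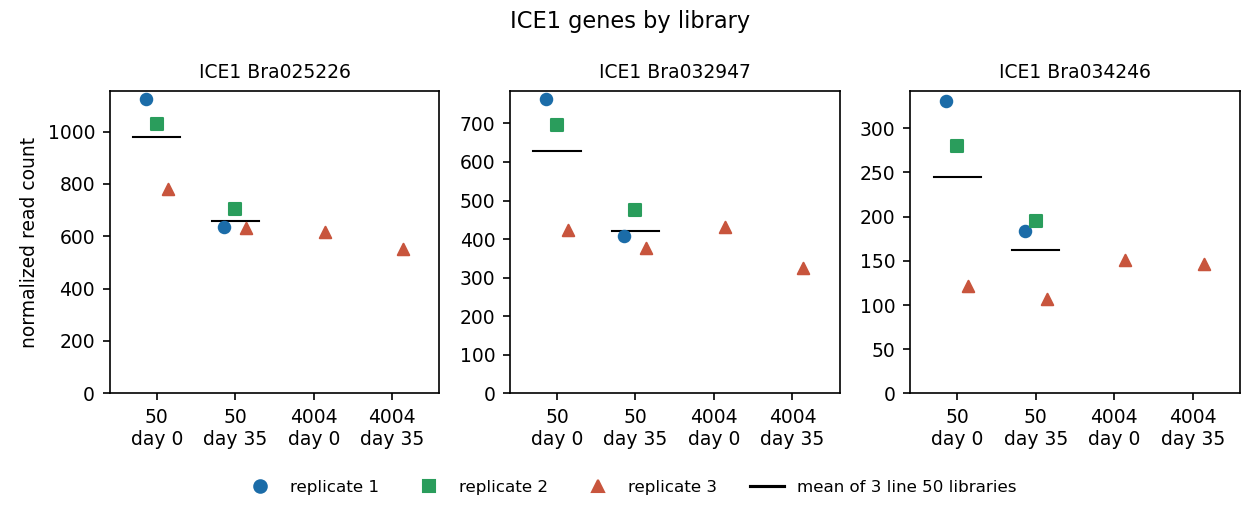
Normalized read count of the 3 tested ICE1 genes in each library, by line and day, with symbols for the replicate number and bars for the mean of the 3 line “50” libraries. Replicate 3 of line “50” was the lowest of its day in each panel, and only Bra025226 showed no overlap between the days.

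Before cold, every CBF gene stood higher in line “4004” than in any library of line “50”. The single library of line “4004” held 471 normalized counts of Bra022770, 448 of Bra019162, 29 of Bra010460, 108 of CBF1, 58 of CBF3 and 317 of CBF4. For Bra022770 this was also above all 3 cold-treated libraries of line “50” (180 to 420), and on this deposited scale the same held for the other 5 genes, for Bra010460 by 29 against 28. On the TMM scale of the test it held for Bra019162, CBF3 and CBF4 only. Bra022770 there stood at 18.63 reads per effective M (CPM on the TMM-scaled library size) in line “4004” at day 0 against 18.79 in replicate 3 of line “50” at day 35, CBF1 at 4.24 against 4.35 and Bra010460 at 1.1 against 1.22. The 5 CBF1, CBF2 and CBF3 genes summed to 1114 normalized counts in line “4004” at day 0. Line “50” reached 41 to 221 at day 0 and 413 to 967 at day 35. On the TMM scale the sum was 43.93 reads per effective M in line “4004” at day 0 against 16.38 to 43.16 in line “50” at day 35, so it was close to that of replicate 3. A value above the 3 libraries of line “50” at day 0 was found in 33.0% of all genes tested, since 1 library was set against 3.

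CBF4 was the 1 member that passed the test between the lines at day 0, where 1.49% of all genes tested were called (1.2% higher, 0.292% lower). It had passed the filter on low counts only through this library, so its test is no independent support for the difference. Line “4004” had 319 reads and the 3 libraries of line “50” had 3 reads together. The ratio of summed reads was 289 (98.0 to 1410, exact 95% counting interval). Fitted on the log2 scale, the difference was 6.99 ± 0.69 (edgeR adjusted p = 0.01) and 6.16 ± 0.46 with the block (edgeR adjusted p = 0.0099). The call was lost without replicate 1 of line “50” on both days (6.53, edgeR adjusted p = 0.17) or replicate 2 (6.77, edgeR adjusted p = 0.15). It was also lost without the day 0 library of replicate 1 (6.54, edgeR adjusted p = 0.073) or of replicate 2 (6.79, edgeR adjusted p = 0.085). Most calls were lost in these settings. Over all genes tested, 466 were called with all libraries. Without replicate 1 or replicate 2 on both days 2 and 3 were called, and 23 without either day 0 library.

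The other CBF genes differed between the lines at day 0 by 2.93 to 3.58 on the log2 scale and were not called. The value of 3.58 was that of Bra010460. Neither Bra010460 nor CBF4 passed the filter on low counts in line “50” alone. Calls of these genes in the counts below are therefore no independent support. Bra022770 differed by 2.93 ± 0.83 (edgeR adjusted p = 0.18). Bra019162 differed by 3.19 ± 0.84 (edgeR adjusted p = 0.15). CBF3 differed by 3.48 ± 0.78 (edgeR adjusted p = 0.099) and CBF1 by 3.47 ± 1.02 (edgeR adjusted p = 0.19). With the block, 5 of the 6 CBF genes were called, against 7.58% of all genes tested (4.66% higher, 2.91% lower). The exception was Bra010460, at 2.26 ± 0.60 (edgeR adjusted p = 0.071), whereas Bra022770, for one, stood at 2.16 ± 0.35 (edgeR adjusted p = 0.031). In that fit the libraries of line “4004”, which carry the number 3, were set against replicate 3 of line “50”. Against that library alone, Bra022770 was 4.48-fold higher (3.45 to 5.90) and Bra019162 5.22-fold higher (3.92 to 7.07, exact 95% counting intervals). Whether the number 3 marks a shared batch across the lines is not stated by the labels or methods. With replicate 3 of line “50” left out, all 6 CBF genes were called, where 28.0% of all genes tested were, and Bra022770 stood at 3.75 (edgeR adjusted p = 0.00058).

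ICE1 transcripts were not higher in line “4004” at day 0. Bra025226 stood at 617 normalized counts, below the 780 to 1126 of line “50”, while Bra032947 at 431 and Bra034246 at 151 lay within its range. A place below all 3 libraries of line “50” was found in 22.8% of all genes tested. The fitted differences of -0.71, -0.58 and -0.72 on the log2 scale did not pass the test (edgeR adjusted p = 0.39, 0.59 and 0.7). Leaf markers moved alongside these line differences. The summed leaf markers stood at 41342 normalized counts in line “4004” against 113974 to 186273 in line “50” at day 0, with none at its lowest value, and their part in the CBF differences was not tested.

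After vernalization, no CBF or ICE1 gene was called between the lines, with or without the block, and 0.446% of all genes tested were called without it (0.353% higher, 0.093% lower). Line “4004” stood above the range of line “50” for Bra022770 at 932 against 180 to 420, for Bra019162 at 719 against 182 to 377, and for CBF1 at 151 against 27 to 97 normalized counts. A position above that range was found in 26.2% of all genes tested. Bra022770 differed by 1.69 ± 0.83 on the log2 scale (edgeR adjusted p = 0.92), and by 0.80 ± 0.35 with the block (edgeR adjusted p = 0.23). Without replicate 3 of line “50”, where 16.4% of all genes tested were called, 3 CBF genes were higher in line “4004”, namely Bra022770 at 2.24, CBF1 at 2.17 and Bra019162 at 1.92 (edgeR adjusted p = 0.0032, 0.012 and 0.0051). Bra010460, at 15 normalized counts, and CBF3, at 37, lay within the range of line “50”. CBF4 lay below it, at 3 against 6 to 11, from 3 reads. The 3 tested ICE1 genes differed by -0.45 to -0.21 on the log2 scale, at 551 for Bra025226, 324 for Bra032947 and 146 for Bra034246.

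Between the days, the CBF genes of line “4004” moved in different directions. These are values of 1 library per day, with no test, and their exact 95% intervals cover counting error only. Bra022770 was 1.98-fold higher at day 35 (1.77 to 2.21), Bra019162 1.61-fold (1.43 to 1.81) and CBF1 1.40-fold (1.09 to 1.81). CBF3 was 1.59-fold lower (1.04 to 2.47) and Bra010460 2.03-fold lower (1.03 to 4.18). CBF4 had 319 reads at day 0 and 3 at day 35, a ratio of 108 (36.6 to 527). A difference of 2-fold or more in this line was found upward in 8.53% and downward in 10.4% of all genes tested. ICE1 stood at ratios of day 35 to day 0 of 0.893 for Bra025226, 0.751 for Bra032947 and 0.965 for Bra034246.

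The make-up of the CBF1, CBF2 and CBF3 reads differed between the 2 libraries of line “4004”, as shares whose intervals cover counting error only. Bra022770 took 42.4% of the reads of these 5 genes at day 0 (39.5 to 45.4) and 50.3% at day 35 (48.1 to 52.6, exact Clopper-Pearson 95% intervals). CBF3 took 5.18% (3.96 to 6.64) and then 1.95% (1.38 to 2.68). Bra010460 took 2.5% (1.67 to 3.59) and then 0.738% (0.404 to 1.24). In line “50” the share of Bra022770 was 47.1%, 56.1% and 48.9% at day 0 and 44.2%, 43.9% and 43.5% at day 35. It was thus lower at day 35 in each of the 3 pairs, with each day 35 value inside the day 0 interval of its pair, and higher in line “4004”. Bra022770 and Bra019162 together made up most of these reads in every library. The sources do not state how reads matching several copies were counted, so the split between CBF2 copies is uncertain.

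The difference between the responses of the lines was fitted for each member, and none was called in edgeR with all libraries. CBF4 failed the filter on low counts in line “50” alone. Its calls under the other settings given here are therefore no independent support for a difference. CBF4 came to -8.06 ± 1.21 on the log2 scale (unadjusted p = 0.00029, edgeR adjusted p = 0.95). CBF3 came to -3.20 ± 1.17 and Bra010460 to -3.48 ± 1.49 (edgeR adjusted p = 1.0 for each). Across all genes, edgeR called 0, with 956 at an unadjusted p under 0.05, and DESeq2 called 69, CBF4 among them (-8.17, DESeq2 adjusted p = 4.2e-05). Without replicate 3 of line “50”, edgeR called 2012 genes, 6.47% of those tested. These held 3 CBF genes, namely CBF4 at -8.41 (edgeR adjusted p = 0.0082), CBF3 at -3.13 (edgeR adjusted p = 0.046) and Bra019162 at -2.13 (edgeR adjusted p = 0.045).

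**Figure D3:**
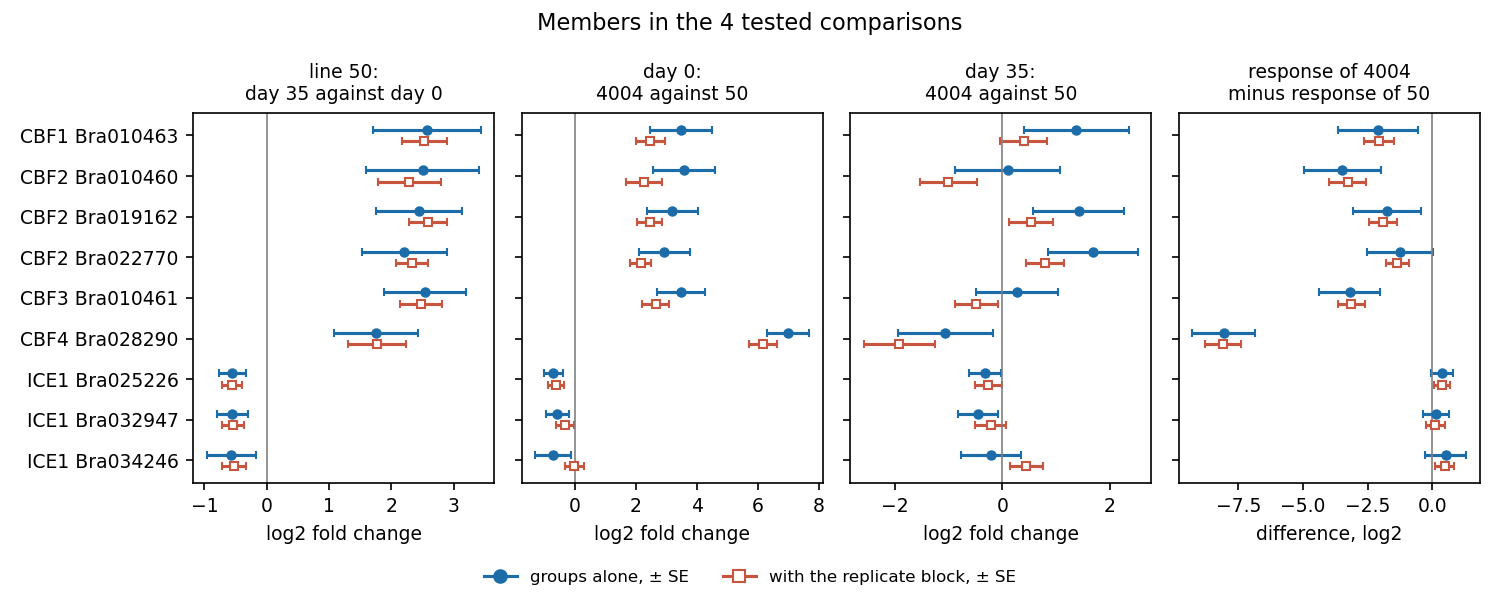
Fitted log2 fold change (± SE) of the 9 tested members in 4 comparisons, for the fit by group alone (filled circles) and with the replicate block (open squares). The CBF genes lay at 1.75 to 2.57 in line “50” and CBF4 at 6.99 between the lines at day 0, while the ICE1 genes lay between -0.72 and 0.51.

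Known activators of CBF genes were examined next, as 31 genes of 15 Arabidopsis loci, of which 29 genes were tested. In line “50”, 4 rose from day 0 to day 35 and none fell, while 2.23% of all genes tested rose. The 4 were the morning clock genes CCA1 and LHY and the related RVE4. LHY gene Bra030496 went from 24, 15 and 11 to 1001, 866 and 507 normalized counts (5.55 on the log2 scale), and LHY gene Bra033291 changed by 5.39. CCA1 (Bra004503) went from 97, 96 and 116 to 1308, 1203 and 962 (3.49), and RVE4 gene Bra005751 changed by 1.79. The list's median was 0.25 on the log2 scale, against 0.01 over all genes tested. With the block 8 rose, where 7.94% of all genes tested did. No calcium-signalling CAMTA gene, ICE2 gene or SIZ1 gene, which encodes the SUMO ligase of ICE1, was among the 4.

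CCA1 was also the 1 activator called between the lines at day 0, at 400 normalized counts in line “4004” against 96 to 116 in line “50” (1.90 on the log2 scale, edgeR adjusted p = 0.037). The LHY genes Bra030496 and Bra033291 stood at 26 and 50 in that library, far below their 507 to 1353 in line “50” at day 35, and were not called between the lines. The CCA1 call was lost with library totals. It was also lost without replicate 1 or replicate 2 of line “50”, on both days or on a single day. In those settings 2 to 156 of all genes tested were called. With all libraries, 1.2% of all genes tested were called higher between the lines at day 0. The part of the clock genes in the CBF levels was not tested. Without replicate 1 or replicate 2 of line “50”, none of the activators was called in that line, nor was any other gene. Without replicate 3, 8 activators were called there, where 20.4% of all genes tested were.

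Of the repressors of CBF expression or of ICE1, 45 of 47 genes were tested. In line “50”, 6 rose and none fell, where 2.23% of all genes tested rose, and with the block 11 rose, where 7.94% did. The median was 0.60 on the log2 scale, against 0.01 over all genes. The 6 were the 3 SOC1 genes, the clock genes TOC1 (Bra012964, 1.72) and PRR9 (Bra040484, 1.78), and the phytochrome-interacting factor PIF3 (Bra020017, 1.51). SOC1, best known as a promoter of flowering, went in Bra000393 from 4, 4 and 3 to 259, 277 and 45 normalized counts (5.56). The other SOC1 genes, Bra004928 and Bra039324, changed by 5.49 and 5.16. The count was 0 without replicate 1 or replicate 2 of line “50”, as it was for all genes. Without replicate 3 it was 12, where 20.4% of all genes tested were called.

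Between the lines at day 0, 3 repressor genes were higher in line “4004”, all of them copies of ZAT12, a zinc finger gene of the oxidative stress and cold response. Bra006691 and Bra006692 had identical values and may share reads. They stood at 1179 normalized counts against 19, 90 and 36 in line “50” (4.55 on the log2 scale, edgeR adjusted p = 0.035). Bra002528 stood at 332 against 5, 28 and 17 (4.20, edgeR adjusted p = 0.047). At day 35 in line “4004” Bra006691 stood at 97, so ZAT12, like CBF4, was high in the day 0 library only. No repressor was called at day 0 without replicate 1 or replicate 2 of line “50”, on both days or on a single day. In those settings 2 to 156 of all genes tested were called. Over all genes tested, 1.2% were called higher between the lines at day 0 with all libraries.

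CBF targets and other cold-regulated genes had fitted differences above 0 from day 0 to day 35 in line “50” in all 29 genes tested. Of 32 genes from 18 loci, 3 failed the filter, 18 rose and none fell, where 2.23% of all genes tested rose. With the block 26 rose, where 7.94% of all genes tested did. The median was 2.33 on the log2 scale against 0.01 over all genes. The largest called changes were in COR15B, a chloroplast stroma protein that protects membranes during freezing. Bra000265 went from 62, 75 and 298 to 10281, 10196 and 20189 normalized counts (6.54 ± 0.89, edgeR adjusted p = 0.017), and Bra000263 from 148, 187 and 697 to 12125, 12569 and 32324 (5.79).

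GOLS3 (Bra031663), a galactinol synthase of the raffinose pathway, went from 50, 52 and 108 to 3476, 3493 and 2900 normalized counts (5.55 on the log2 scale). COR28 gene Bra034595 changed by 4.45. LEA14 (Bra030494), a late embryogenesis abundant protein, changed by 3.69. RAP2.1 (Bra014056), a repressor that acts within the CBF pathway, went from 3, 7 and 10 to 67, 65 and 124 (3.67). The count of target genes called was 0 without replicate 1 or replicate 2 of line “50” on both days, as it was for all genes. It was 25 without replicate 3, where 20.4% of all genes tested were called.

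Between the lines at day 0, 23 of the 29 targets had fitted differences above 0, with a median of 1.15 on the log2 scale against -0.04 over all genes. In edgeR 3 were called higher, where 1.2% of all genes tested were, and 5 with the block, where 4.66% were. Without replicate 3 of line “50”, 19 were called, where 28.0% of all genes tested were. No target was called without replicate 1 or replicate 2, on both days or on a single day. In those settings 2 to 156 of all genes tested were called. The 3 called with all libraries were the 2 ZAT10 genes, zinc finger genes of several stress responses, and COR413IM2, a chloroplast membrane protein. ZAT10 gene Bra010922 stood at 2416 normalized counts against 14, 92 and 40 in line “50” (5.57 on the log2 scale, edgeR adjusted p = 0.027), and Bra032845 at 1229 against 16, 76 and 33 (4.81, edgeR adjusted p = 0.033). COR413IM2 (Bra032315) stood at 1308 against 248, 189 and 314 (2.31, edgeR adjusted p = 0.034). At day 35 in line “4004” the ZAT10 genes stood at 257 and 187. Their part and that of the ZAT12 genes in the CBF4 level was not tested.

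Target levels were set beside the CBF sum in each library. In line “4004” at day 0, where the summed CBF1, CBF2 and CBF3 level was close to that of replicate 3 of line “50” at day 35 on the TMM scale, COR15B gene Bra000263 stood at 385 normalized counts. At day 0 the libraries of line “50” held 148, 187 and 697, and its cold-treated libraries held 12125 to 32324. The other COR15B gene, Bra000265, stood at 625, above the 62 to 298 of line “50” at day 0 and below its 10196 to 20189 at day 35. GOLS3 stood at 487 in that library, between the 50 to 108 of line “50” at day 0 and the 2900 to 3493 at day 35. KIN2 (Bra008661), a cold-induced small protein gene picked after its values were seen, stood at 207, against 25, 14 and 232 in line “50” at day 0. Some other targets stood near or above their cold levels in that library. RAP2.1 stood at 77, within the 65 to 124 of line “50” at day 35. COR413IM2 stood at 1308, above its 608 to 771, and LEA14 at 99, below its 109 to 137. By day 35 line “4004” held 18000 of Bra000263, 15009 of Bra000265, 7188 of KIN2 and 3711 of GOLS3. Within this line 16 of the 29 targets were higher at day 35 by 2-fold or more, where 8.53% of all genes tested were. Lower by as much were 4, where 10.4% of all genes tested were.

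**Figure D4:**
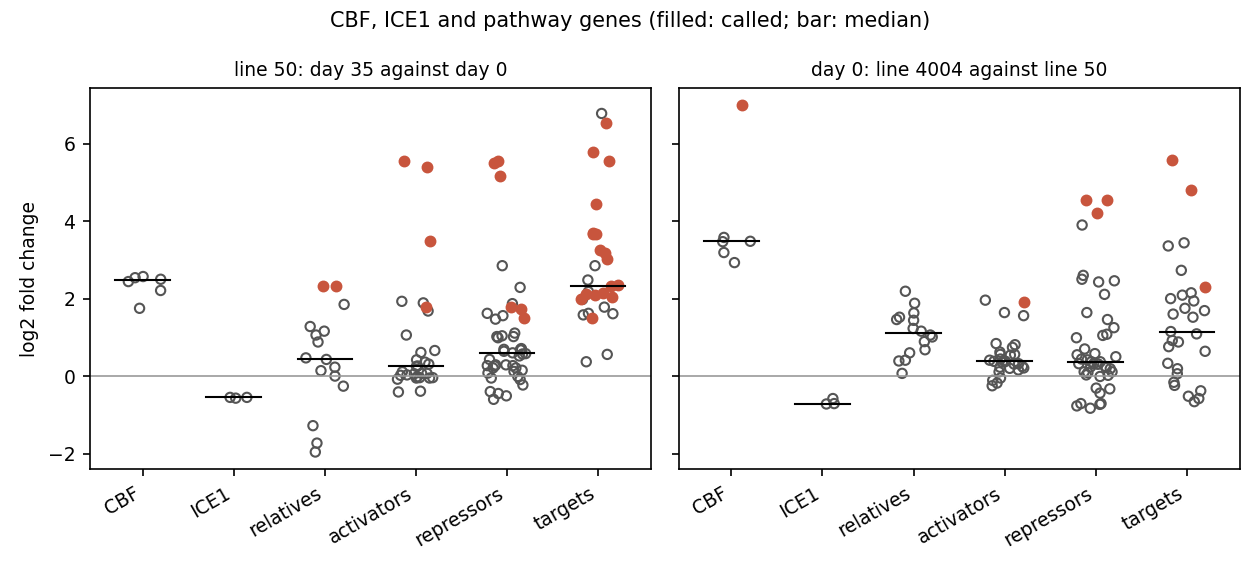
Fitted log2 fold change of the CBF and ICE1 genes and of 4 pathway lists, for day 35 against day 0 in line “50” and for line “4004” against line “50” at day 0, with called genes filled and medians as bars. The target median was 2.33 in the left panel and 1.15 in the right, where 3 targets were called.

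**Figure D5:**
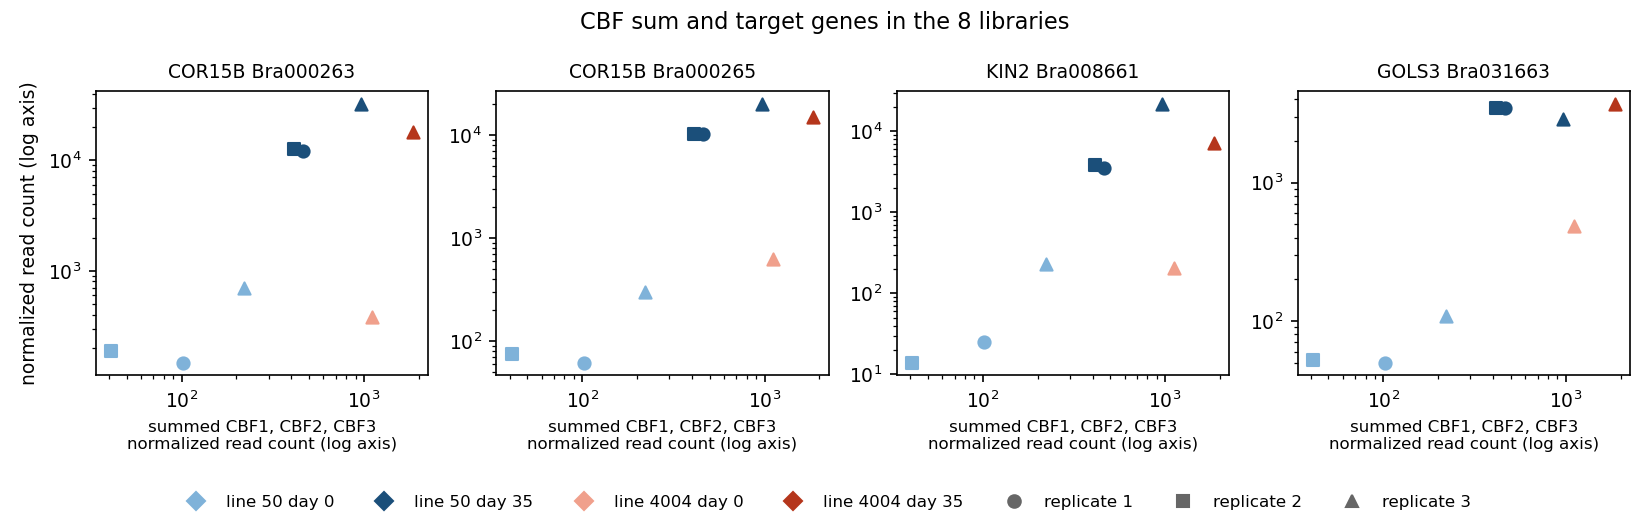
Normalized read count (log axis) of 4 cold-regulated genes against the summed normalized count of the CBF1, CBF2 and CBF3 genes (log axis) in the 8 libraries, coloured by line and day with symbols for the replicate number. The line “4004” library of day 0, at a sum of 1114, stood at 385 and 625 for the COR15B genes, 207 for KIN2 and 487 for GOLS3. Other targets, among them RAP2.1 and COR413IM2, are not shown.

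The relatives of the CBF genes within the DREB family gave 19 genes, of which 16 were tested. In line “50” 2 rose and none fell, where 2.23% of all genes tested rose, with a median of 0.45 on the log2 scale. These were DREB2A gene Bra009112, from 46, 67 and 57 to 318, 244 and 287 normalized counts (2.32), and DREB2C (Bra017011), from 28, 35 and 48 to 228, 193 and 136 (2.33). Both belong to the drought and heat branch of the family. With the block 4 rose and 2 fell, where 7.94% and 7.69% of all genes tested did. The count was 0 without replicate 1 or replicate 2 of line “50”, as it was for all genes. Without replicate 3 it was 8, where 20.4% of all genes tested were called. Between the lines at day 0 all 16 lay above 0, with a median of 1.11. There edgeR called none, and DESeq2 called 1, where it called 1564 of the 31191 genes tested. Without replicate 3 of line “50” edgeR called 9, where 28.0% of all genes tested were called. In line “4004” 8 of the 16 were lower at day 35 by 2-fold or more and 2 were higher, where 10.4% and 8.53% of all genes tested were. In edgeR with all libraries, no gene of the 4 lists was called between the lines at day 35 or in the difference of the responses. DESeq2 called 1 relative, 3 repressors and 1 target in the difference, where it called 69 of the 31191 genes tested. Without replicate 3 of line “50”, edgeR called 5 relatives, 3 activators, 9 repressors and 12 targets there, where 6.47% of all genes tested were called. Between the lines at day 35 it called 1 relative, 1 activator and 4 targets in that setting, where 16.4% of all genes tested were.

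The members shared a pattern across the 8 libraries to different degrees. As Pearson correlations of log2 CPM, given as a description over libraries that share depth and batch, Bra022770 and Bra019162 reached 0.997. Pairs among the CBF1, CBF2 and CBF3 genes ranged from 0.886 to 0.997, and CBF4 with these genes from 0.515 to 0.711. Among 23505 genes with a mean of at least 50 normalized counts, the 3 most like CBF1 were Bra022770 (0.991), Bra019162 (0.99) and the dehydrin ERD14 (Bra003732, 0.984). Besides each other, Bra022770 and Bra019162 were most like a sterile alpha motif protein gene (Bra029675, 0.994 and 0.996) and a helicase gene (Bra009320, 0.993 and 0.992).

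For CBF3 the nearest genes were AP2 (Bra017809, 0.992), a protein phosphatase 2C gene (Bra014778, 0.987) and EDF3 (Bra026509, 0.982). For Bra010460 they were an ankyrin repeat gene (Bra004804, 0.976), IAGLU (Bra038079, 0.97), which glucosylates auxin, and the jasmonate receptor gene COI1 (Bra000156, 0.97). CBF4 was closest to a hydrolase gene (Bra028514, 0.973), the arabinogalactan protein gene AGP10 (Bra000670, 0.969) and a glycosyl hydrolase gene (Bra012015, 0.967). AGP10 stood at 557 normalized counts in line “4004” at day 0 and at 12 to 44 in the other 7 libraries, so both genes stood highest in that library.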

How the data were processed

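RNA-seq of 8 libraries was used. The authors trimmed reads, mapped them with Bowtie2 to the Brassica rapa reference of the BRAD database and deposited raw counts per gene. The sources used here do not name the counting program. The deposited counts have a lowest value of 1 in every library, so 1 appears to have been added, and a read number is the count less 1. The authors also deposited normalized read counts (a score here, the raw count divided by a DESeq factor per library, scaled with 4 further libraries and rounded), used to describe levels. Their deposited log2 ratios between groups were not used. Gene names came from the deposited Arabidopsis annotation (36242 genes with a locus).

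The raw counts entered edgeR 4.0.16 (R 4.3.3; TMM, filterByExpr by group, quasi-likelihood test), where all 8 libraries shared 1 model with a coefficient for each group, and Benjamini-Hochberg adjustment ran over 31191 genes. Line “4004” gave no spread of its own and was assumed to vary like line “50”. The replicates are biological per the methods, and the p-values measure the spread between the line “50” libraries. Replicates 1 and 2 differed by more than counting noise (mean chi-square per gene of 15.4 and 6.7), so each library was counted once. SE is the fold change over the square root of F. The fit was tested on simulated data. Alternatives were RLE factors, library totals, DESeq2 1.42.0, no filter, 1 subtracted, the replicate block, each library or number left out, and line “50” alone.

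Same-numbered line “50” libraries deviated together between the days (r = 0.446, 0.615 and 0.695), so the numbers were taken to pair them. Replicates 1 and 2 also correlated with each other (0.563 and 0.473), while replicate 3 correlated negatively with both (-0.656 to -0.505). These values set replicate 3 apart and cannot tell whether replicates 1 and 2 are paired by number. The replicate block and the folds within numbered pairs rest on that assumption.

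Every member was named. From each list, up to 6 called genes per comparison with the largest change were named, and the 3 genes most like each CBF gene. The members and lists were chosen with earlier results of these data known. Of 83 listed loci, 72 had a gene in the table.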

Additional observations from a re-analysis of the deposited data

Results flagged for a closer look

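In 3 CBF genes every numbered pair of line “50” was higher at day 35 while line “4004” was lower at day 35. The genes were flagged by these opposite directions, so the sign of the differences below follows from the rule. How many of all genes tested meet it was not counted. The fitted difference of the responses was -8.06 on the log2 scale for CBF4 (Bra028290), -3.48 for the CBF2 gene Bra010460 and -3.20 for CBF3 (Bra010461). None passed the test of that difference in edgeR (adjusted p = 0.95, 1.0 and 1.0, and 0.16, 0.26 and 0.21 with the replicate block). The CBF4 value rested on 319 reads in 1 library, the day 0 library of line “4004”, against 0 to 7 reads in the other libraries.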

How the results depend on the processing

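The fitted direction of every CBF gene in line “50” and between the lines at day 0 was the same under all alternatives run, at 1.31 to 3.34 and 2.16 to 7.91 on the log2 scale. The calls were less stable. Genes called in line “50”, between the lines at day 0, between the lines at day 35 and in the difference of responses numbered 1224, 466, 139 and 0. DESeq2 gave 2954, 1564, 433 and 69, and the replicate block 4876, 2363, 297 and 0. Subtracting 1 from every count gave 277 at day 0 and 47 at day 35. Leaving out a replicate number of line “50” on both days gave 0 to 6352, 2 to 8712, 0 to 5084 and 0 to 2012, the highest each time without replicate 3 (0, 3, 8 and 0 without replicate 2). Leaving out 1 library gave 48 to 3015, 23 to 997, 10 to 139 and 0. Of the 6 CBF genes, DESeq2 called 4 in line “50” and 5 between the lines at day 0, and library totals called 2 at day 0 (CBF3 and CBF4). CBF4 and Bra010460, which failed the filter on low counts in line “50” alone, could enter these counts of CBF genes. Without replicate 3 of line “50”, 5, 6, 3 and 3 were called. ICE1 gene Bra034246 was called between the lines at day 0 only there (-1.02, edgeR adjusted p = 0.0046).

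Between the lines at day 35, Bra010460 (0.10) turned to -0.02 in DESeq2, to -1.01 with the replicate block and ranged from -0.36 to 1.16 with a replicate left out (-0.34 without replicate 2 or the day 35 library of replicate 1, -0.31 without that of replicate 2). Bra010461 (0.27) turned to -0.49 with the block and ranged from -0.03 to 0.79 with a replicate left out (-0.02 without the day 35 library of replicate 2), and Bra034246 (-0.21) to 0.45 with the block. In the difference of responses, Bra032947 (0.13) turned to -0.02 with library totals, and ranged from -0.05 to 0.32 with a replicate left out (-0.0 without the day 0 library of replicate 1). The cause was not tested. Library totals moved the median of all genes between the lines at day 0 from -0.035 to 0.186. List counts under the alternatives and levels on the TMM scale were added after seeing the data. With 0 to 7 reads of CBF4 and 0 to 16 of Bra010460 per line “50” library, their folds are limited by depth.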
